A study of Mus musculus with 2 samples.

Results

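The mouse CD200 receptor genes Cd200r1, Cd200r3 and Cd200r4 and the neighbouring immunoglobulin-like receptor genes Lilr4b and Lilrb4a were followed in single cells of the bone marrow. These 5 genes were taken by symbol from the 31053 genes of the deposited count tables, and all 5 were found in both libraries. They were chosen because earlier results of these data had named them, so that their levels between the sorts and along Prss34 are given as a description and without a test. The study sorted bone marrow cells that carry the adhesion protein E-cadherin on their surface into cells with the receptor cKIT (E-cadherin+cKIT+) and cells without it (E-cadherin+cKIT-). The sample labels give FVB as the strain of both groups. The study names wild-type mice in its results text, and Vav-iCre;mTmG mice, 3 in number, in a figure legend as the source. In Vav-iCre;mTmG mice, Cre under the Vav promoter switches a fluorescent reporter in blood cells. No treatment, age or further allele is given for either group in the sources used here. Each sort was sequenced as 1 library with a 3′ method that counts RNA molecules by unique molecular identifiers (UMIs), so there is no replicate and no p-value.

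CD200 is a membrane protein that many cells show to myeloid cells, and its receptor CD200R1 passes an inhibitory signal through the adaptors Dok1 and Dok2. The related receptors CD200R3 and CD200R4 lack that signalling tail and pair instead with the activating adaptor DAP12, encoded by Tyrobp, and CD200R3 is the target of an antibody widely used to find mouse basophils. Lilrb4a encodes gp49B, an inhibitory receptor with tyrosine-based motifs that bind phosphatases, and Lilr4b encodes gp49A, its close relative without those motifs. Prss34 and Mcpt8 encode proteases of mouse basophils, a rare granulocyte made in the bone marrow.

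The 3 CD200 receptor genes lie on chromosome 16 of GRCm38, all on the plus strand. Cd200r1 (ENSMUSG00000022667) spans 44765736 to 44794978, Cd200r4 (ENSMUSG00000062082) 44811733 to 44839150 and Cd200r3 (ENSMUSG00000036172) 44943678 to 44981380. Another gene of the family, Cd200r2, lies between Cd200r4 and Cd200r3, and the whole group covers 216 kb. The other pair lies on chromosome 10, also on the plus strand, with Lilr4b (ENSMUSG00000112023) at 51480632 to 51486703 and Lilrb4a (ENSMUSG00000112148) at 51490956 to 51496611, a gap of 4.25 kb.

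Promoter entries were found for 3 of the 5 members in RefSeq (build GRCm38.p6). The 250 bases before the start of Cd200r4 and of Cd200r3 are printed because they share a stretch of sequence and because their levels had the highest correlation of all member pairs, as described further on. The capitals mark the longest run of identical bases, 32 in number.
Cd200r4: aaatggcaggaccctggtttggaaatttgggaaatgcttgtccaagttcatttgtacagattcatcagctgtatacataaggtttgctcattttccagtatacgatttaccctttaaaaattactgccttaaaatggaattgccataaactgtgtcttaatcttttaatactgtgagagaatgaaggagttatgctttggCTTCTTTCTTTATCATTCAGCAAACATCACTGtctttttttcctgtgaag
Cd200r3: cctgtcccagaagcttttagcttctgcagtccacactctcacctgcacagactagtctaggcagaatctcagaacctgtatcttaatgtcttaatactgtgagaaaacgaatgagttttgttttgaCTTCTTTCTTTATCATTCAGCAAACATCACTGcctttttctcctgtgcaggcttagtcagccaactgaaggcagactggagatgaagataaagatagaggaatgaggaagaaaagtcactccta
The first sequence is chr16:44820478-44820727 and lies inside the annotated Cd200r4 gene without overlapping an exon, and the second is chr16:44943428-44943677, directly upstream of Cd200r3, both on the plus strand. A local alignment of this pair covered 107 columns with 86.9% identity, while no other pair among Cd200r2, Cd200r3, Cd200r4 and Lilr4b aligned over more than 36 columns. The marked run lies at -50 to -19 from the RefSeq start of Cd200r4 and at -124 to -93 from that of Cd200r3. It occurs in these 2 of 32851 promoters in the table. For Cd200r4 this start lies inside the gene and is not the gene start at 44811733 given above. Whether the stretch acts as a promoter was not tested. The run holds 1 match to GATAA, the letters bound by GATA factors, on the opposite strand as TTATC, and 1 match to TTGCNNAA, the letters bound by C/EBP factors. Outside the run, the Cd200r3 sequence holds another GATAA at -38 to -34. Searched on both strands of the same 250 bases, GATAA occurs in 22.6% of all promoters and TTGCNNAA in 9.56%, so that such matches are not rare.

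The upstream bases of Lilr4b are printed for comparison, since this gene had the largest difference between the sorts, with the single GATAA match in capitals.
Lilr4b: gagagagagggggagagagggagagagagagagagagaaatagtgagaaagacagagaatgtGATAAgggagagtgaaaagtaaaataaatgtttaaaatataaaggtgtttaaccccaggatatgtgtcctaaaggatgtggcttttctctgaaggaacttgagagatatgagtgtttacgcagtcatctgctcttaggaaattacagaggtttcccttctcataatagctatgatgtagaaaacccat
This sequence is chr10:51480362-51480611 on the plus strand, overlaps no annotated gene, and its match lies at -188 to -184. The upstream bases of Lilr4b hold no TTGCNNAA and 1 match to TTCNNNGAA, the letters bound by STAT factors, which 7.02% of promoters hold. None of the 3 members with an entry holds TGTGGT, the letters bound by RUNX factors, which 14.0% of promoters hold. These are matches of letters and not measured binding sites.

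The cKIT+ library held 6479 kept cells and 91108781 UMIs, and the cKIT- library 3662 kept cells and 22869169 UMIs, with medians of 13039 and 4416.5 UMIs per cell. Levels are UMIs summed over cells and scaled to 1000000 UMIs of the same cells (CPM), and all intervals are 95% intervals for counting error only. Clusters were made without the 5 members, and those called basophil-like from 10 marker genes held 3027 cKIT+ cells (46.7%) and 3225 cKIT- cells (88.1%). All 10 basophil markers were found in both libraries, with a summed level of 26328 and 75135 CPM. Of the 7 neutrophil markers, which reached 24749 CPM in the cKIT+ and 6997 CPM in the cKIT- library, none was at 0, and their part in the differences over all cells was not tested. Kit, the gene of the sort, had 37.1 CPM in cKIT+ and 0.875 CPM in cKIT- cells, and Cdh1, the E-cadherin gene, 62.8 and 193 CPM. The libraries share 10 cell barcodes, and leaving those cells out gave ratios between 3.98 for Cd200r1 and 25.6 for Lilr4b, as with them.

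All 5 members were higher in the E-cadherin+cKIT- library. Cd200r1, the inhibitory receptor, had 3400 UMIs or 37.3 CPM in the cKIT+ library and 3391 UMIs or 148 CPM in the cKIT- library, giving a ratio of 3.97 (interval 3.79 to 4.17). It had the smallest difference of the family. For Cd200r3, which pairs with DAP12, the level was 21.1 CPM in cKIT+ and 329 CPM in cKIT- cells, a ratio of 15.6 (14.8 to 16.4). Cd200r4, which also pairs with DAP12, had 18.3 CPM in cKIT+ and 178 CPM in cKIT- cells, a ratio of 9.72 (9.18 to 10.3). The intervals of these 3 ratios, which cover counting error only, do not overlap. Over all cells the ratio rose from Cd200r1 to Cd200r4 to Cd200r3, which describes 1 library per sort. In some groups of basophil-like cells described below, Cd200r4 had a larger ratio than Cd200r3.

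Lilr4b, which encodes gp49A, had 1249 UMIs or 13.7 CPM in the cKIT+ library and 8039 UMIs or 352 CPM in the cKIT- library, giving a ratio of 25.6 (24.2 to 27.2). This had rank 5 among the 3224 genes with at least 50 CPM in 1 library. Lilrb4a, the inhibitory partner gene, had 5.20 and 76.5 CPM, a ratio of 14.7 (13.3 to 16.3). At least 4-fold higher in the cKIT- library were 4 of the 5 members, against 2.26% of all 3224 genes, and Cd200r1 lay just under this limit. Since the members were chosen with these differences known, nothing is read from that count. Without scaling to total UMIs the differences were smaller, and the median cKIT+ cell held more UMIs in all. In UMIs per cell the ratio was 1.76 for Cd200r1, 4.32 for Cd200r4, 6.53 for Lilrb4a, 6.93 for Cd200r3 and 11.4 for Lilr4b.

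**Figure D1:**
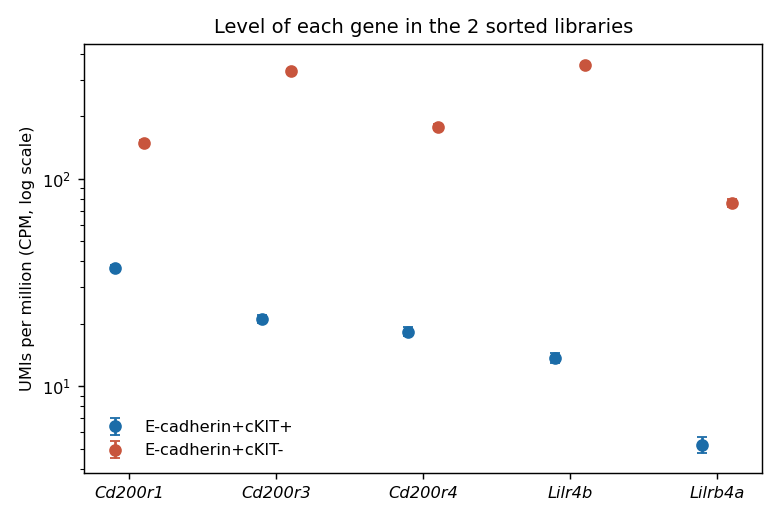
Level of the 5 genes in the cKIT+ (blue) and cKIT- (red) library in CPM on a log axis, with exact Poisson 95% intervals, which are mostly smaller than the points. Each gene is higher in the cKIT- library, and the distance is smallest for Cd200r1 (37.3 and 148 CPM) and largest for Lilr4b (13.7 and 352 CPM).

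The same difference was seen in the number of cells with a UMI, compared after drawing 2000 UMIs from each cell. Lilr4b was found in 4.11% of 6134 cKIT+ cells (3.63% to 4.64%) and in 50.3% of 3486 cKIT- cells (48.6% to 52.0%). Cd200r3 was found in 4.79% and 48.1%, Cd200r4 in 3.99% and 26.9%, Cd200r1 in 7.99% and 26.4% and Lilrb4a in 1.97% and 18.3%. Without thinning the shares were 11.7% and 73.0% for Lilr4b and 29.5% and 52.4% for Cd200r1. As a measure of free RNA, erythroid-like cells, which should lack these receptors, had a UMI of a member in 0 of 64 thinned cKIT+ cells, which allows a share of up to 4.69% by 3 counts and 5.60% by the exact interval, while Prss34 was found in 35.9% of them. The erythroid-like cells had a median of 4928 UMIs and the cKIT+ basophil-like cells of 14878 before thinning. Among cKIT+ basophil-like cells the shares were 12.6% for Cd200r1, 8.53% for Cd200r3, 6.94% for Cd200r4, 5.71% (4.91% to 6.60%) for Lilr4b and 2.22% (1.73% to 2.82%) for Lilrb4a. Larger cKIT+ classes gave a closer limit: Lilrb4a was found in 0 of 376 eosinophil-like cells (exact upper limit 0.976%) and 0 of 455 granulocyte/monocyte progenitor-like cells (0.807%), with medians of 13788 and 26391 UMIs before thinning. The other members were found in 0% to 1.10% of these cells. In cKIT+ B cell-like cells Cd200r1, Cd200r3, Cd200r4 and Lilr4b were each found in 1 of 63 thinned cells, or 1.59% (upper limit 8.53%). In the 219 thinned B cell-like cells of the cKIT- library, with a median of 2681 UMIs before thinning, the members were found in 0% to 1.37% of cells.

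Among basophil-like cells at 2000 UMIs, 73.9% of 3013 cKIT+ cells (72.3% to 75.5%) held no UMI of any member, against 14.4% of 3083 cKIT- cells (13.2% to 15.7%). In cKIT- cells, 2 members were the most frequent number, in 30.1% of cells, and 3 members were found in 22.3%. In comparison, 1.46% of cKIT+ cells held 3 members. Over all cells at 2000 UMIs the shares without a member were 82.7% in cKIT+ and 22.6% in cKIT- cells. Without thinning they were 37.0% and 1.40% of basophil-like cells and 58.0% and 9.67% of all cells.

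Within basophil-like cells, where the cell types of the sorts no longer differ by name, the ratios of cKIT- over cKIT+ were lower but kept their direction for each member. They were 2.77 (2.63 to 2.92) for Cd200r1, 6.11 (5.76 to 6.49) for Cd200r4, 9.73 (9.24 to 10.3) for Cd200r3, 12.4 for Lilrb4a and 18.6 for Lilr4b. Of 3176 genes, 1.86% were at least 4-fold higher in cKIT- and 0.567% in cKIT+ basophil-like cells. Different clusters held most of this class in the sorts: clusters 1, 6, 9 and 15 with 23.5%, 15.8%, 13.9% and 11.03% of the cKIT+ cells, and clusters 0 and 3 with 38.8% and 18.1% of the cKIT- cells.

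The Prss34 share of a cell's UMIs was used to order basophil-like cells in 6 bins, from under 0.1% to 6% and over. In the cKIT+ library each member was highest in the bin with the highest Prss34 share, but only Cd200r1 and Cd200r4 rose from each bin to the next. Cd200r1 had 18.6, 22.0, 48.2, 77.9, 115 and 139 CPM from the lowest to the highest bin. Cd200r3 had 11.5, 6.31, 19.4, 44.4, 103 and 169 CPM, and Cd200r4 had 6.12, 11.6, 17.4, 46.3, 77.0 and 99.6 CPM. For the CD200 receptor genes the highest bin was 7.50 (Cd200r1), 14.7 (Cd200r3) and 16.3 (Cd200r4) times the lowest bin. Against the bin of 0.1 to 0.5% the ratios were 6.34, 26.8 and 8.58, so the order of Cd200r3 and Cd200r4 turned with the bin taken. Lilr4b had 21.4, 8.96, 8.01, 19.8, 46.1 and 81.6 CPM, and Lilrb4a 5.10, 3.26, 2.29, 5.78, 19.2 and 30.9 CPM. This pair had its lowest level at 0.5 to 2%, and the highest bin was 3.81 and 6.05 times the lowest.

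In the cKIT- library the order was different. Lilr4b was highest where Prss34 was lowest, with 1079, 830, 588, 270, 210 and 193 CPM, a ratio of 5.58 (5.24 to 5.96) between the lowest and the highest bin. Lilrb4a followed it with 251, 188, 114, 57.9, 44.6 and 36.1 CPM, a ratio of 6.94 (6.01 to 8.05). Cd200r3 had 677, 640, 512, 281, 266 and 279 CPM, a ratio of 2.42 (2.28 to 2.58). Cd200r1, with 221, 242, 209, 135, 140 and 145 CPM, and Cd200r4, with 229, 236, 258, 175, 182 and 180 CPM, differed least, with ratios of 1.52 (1.38 to 1.68) and 1.27 (1.16 to 1.40). In CPM of this library the LILR pair thus differed most along Prss34, and the CD200 receptors were higher below 2% than above it. Per cell the CD200 receptors ran the other way. Cd200r1 had 664 UMIs in the 1038 cells of the lowest and 1000 UMIs in the 706 cells of the highest bin. Cd200r4 had 688 and 1242 UMIs and Cd200r3 2037 and 1928 UMIs in these cells. Lilr4b (3246 and 1333 UMIs) and Lilrb4a (754 and 249 UMIs) kept their order per cell.

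**Figure D2:**
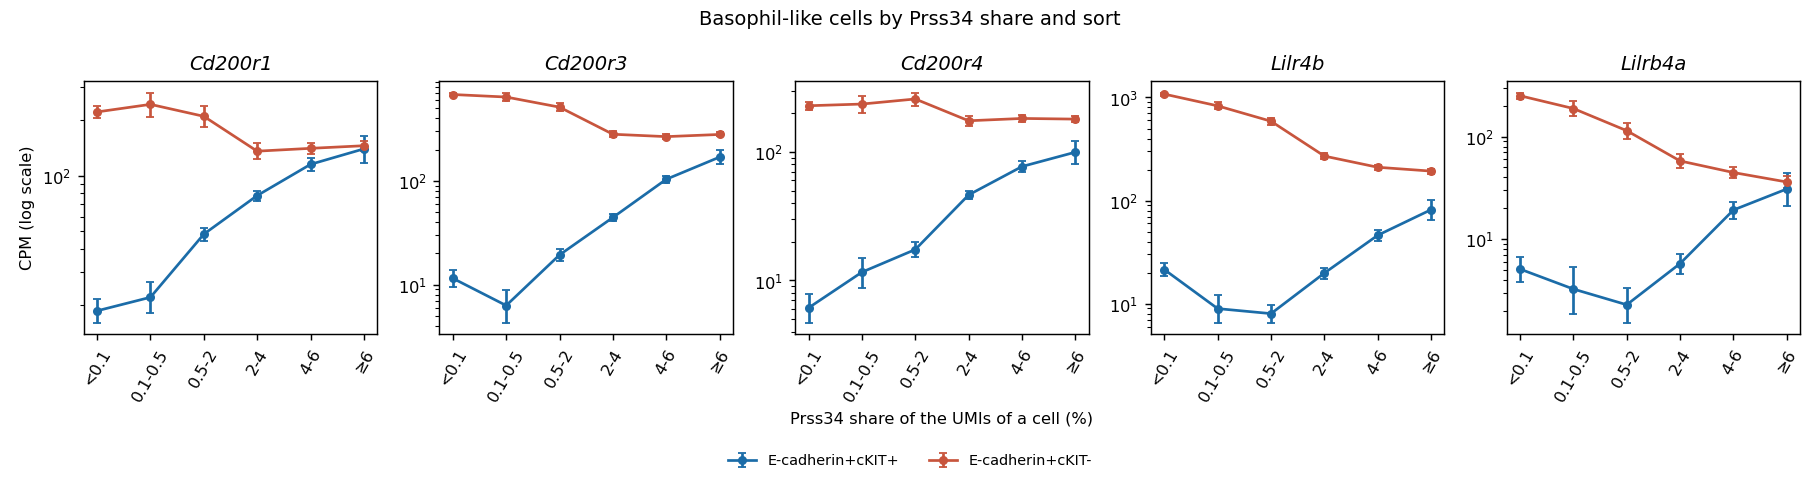
Level of each gene in basophil-like cells in 6 bins of the Prss34 share of a cell's UMIs, in CPM on log axes that differ between panels, with exact Poisson 95% intervals (blue cKIT+, red cKIT-). The curves of both sorts are far apart at low Prss34 shares and approach each other toward the highest bin, where those of Cd200r1 (139 and 145 CPM) and Lilrb4a (30.9 and 36.1 CPM) overlap in their intervals.

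Between the sorts the difference was thus large at a low and small at a high Prss34 share. In the lowest bin the ratio of cKIT- over cKIT+ was 11.9 (10.1 to 14.1) for Cd200r1, 37.3 (28.7 to 49.5) for Cd200r4, 49.1 (36.9 to 66.8) for Lilrb4a, 50.3 (43.8 to 58.2) for Lilr4b and 58.7 (48.6 to 71.6) for Cd200r3. At 6% and over it was 1.04 (0.870 to 1.25) for Cd200r1 and 1.17 (0.803 to 1.76) for Lilrb4a, intervals that include equal levels. For Cd200r3 it was still 1.65 (1.41 to 1.94), for Cd200r4 1.81 (1.47 to 2.24) and for Lilr4b 2.37 (1.89 to 2.99). The bins held between 86 and 816 cKIT+ cells and between 207 and 1038 cKIT- cells. Depth moved with the bins in the cKIT- library, where the median cell had 2892.5 UMIs in the lowest and 9478 in the highest bin, against 12883 and 12205.5 in the cKIT+ library, and its part in the levels was not tested.

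The lowest Prss34 bin held different cells in the sorts. Of its cKIT- cells 97.4% belonged to cluster 0, of its cKIT+ cells 9.05%. Gata2, a transcription factor of the basophil and mast cell lineages, had 601 CPM in the cKIT+ and 1661 CPM in the cKIT- cells of this bin, and Kit 46.0 CPM and 0 of 3009102 UMIs. The 64 cKIT+ cells of cluster 0 held 172 of the 210 Lilr4b UMIs and 44 of the 50 Lilrb4a UMIs of their bin, at 1022 and 261 CPM. Without them the remaining 643 cKIT+ cells had 3.95 CPM of Lilr4b (2.79 to 5.41), 0.623 CPM of Lilrb4a (0.229 to 1.36), 3.11 CPM of Cd200r3, 3.74 CPM of Cd200r4 and 14.2 CPM of Cd200r1. The level of each member in these cells was then lower than in any other cKIT+ bin, and the ratios to all cKIT- cells of the bin, which were still mostly of cluster 0, were 273 for Lilr4b (199 to 387) and 15.5 for Cd200r1 (12.9 to 18.8). With cluster 0 left out of both libraries, 27 cKIT- cells remained, and the ratios were 154 for Lilr4b (103 to 233) and 12.9 for Cd200r1 (7.92 to 20.2).

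Cluster 0 allowed the sorts to be compared in cells that were grouped together by other genes. Its 69 cKIT+ and 1251 cKIT- cells had 1019 and 1053 CPM of Lilr4b, a ratio of 1.03 (0.890 to 1.21). For Lilrb4a the ratio was 0.904 (0.676 to 1.24) and for Cd200r1 0.882 (0.657 to 1.21), all 3 with intervals that include equal levels. Cd200r3 with a ratio of 1.43 (1.15 to 1.79) and Cd200r4 with 1.72 (1.15 to 2.70) were higher in the cKIT- cells. The 69 cKIT+ cells had 0 Kit UMIs among 178539, which allows up to 16.8 CPM, and a median of 2702 UMIs. Their whole library had 37.1 CPM of Kit and a median of 13039 UMIs. All cKIT+ basophil-like cells had 21.7 CPM of Kit, and those with 6% Prss34 and over 1.99 CPM from 2 UMIs. The level of the sorted gene thus did not show the 69 cells as cKIT+, but it was also low in other cKIT+ basophil-like cells. None of the 69 cells carried a barcode shared with the other library.

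Over the 8 basophil-like clusters with at least 20 cells in both libraries, the ratio of cKIT- over cKIT+ had a median of 1.14 for Cd200r1, 2.17 for Lilrb4a, 2.24 for Cd200r4, 2.51 for Cd200r3 and 3.86 for Lilr4b. For each member these medians are smaller than its ratio over all basophil-like cells. Clusters 2 and 4 are led by genes of dividing cells, and there Lilr4b had a ratio of 4.60 (3.97 to 5.35) and 3.15 (2.68 to 3.71) while Cd200r1 had 1.24 (1.11 to 1.39) and 1.07 (0.927 to 1.23). Cluster 18 stood apart, with a Lilr4b ratio of 34.6 (17.1 to 81.6) and a Cd200r3 ratio of 18.4 (11.3 to 31.8). In this cluster Prss34 took 1.34% of the cKIT+ and 4.91% of the cKIT- UMIs, the widest gap among the 8 clusters.

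**Figure D3:**
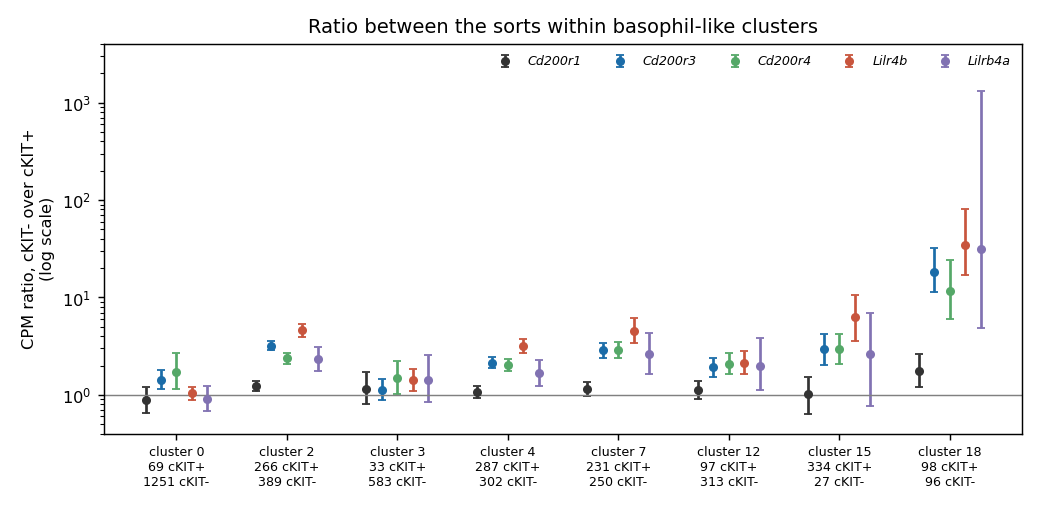
Ratio of the level in cKIT- over that in cKIT+ cells within each of the 8 basophil-like clusters with at least 20 cells per library, on a log axis, with intervals from the exact binomial and a line at equal levels. Cd200r1 lies near 1 in most clusters (median 1.14), Lilr4b lies highest in most (median 3.86), and cluster 18 has the widest ratios.

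Cells were also ordered by their UMIs of 17 cell cycle genes among 2000 UMIs drawn per cell. Over all cKIT- basophil-like cells, Lilr4b had 739 CPM in the 158 cells without a cycle UMI and 291 CPM in the 2119 cells with at least 3. Lilrb4a had 187 and 59.6 CPM, Cd200r3 583 and 315 CPM, Cd200r1 194 and 149 CPM and Cd200r4 251 and 185 CPM. All 5 members were thus higher in CPM in cKIT- cells without cycle UMIs. The median cell of these had 3436 UMIs, against 7369 with at least 3 cycle UMIs, and the part of depth was not tested. In cKIT+ basophil-like cells the order differed by member. Cd200r1 had 28.9 CPM in the 78 cells without and 58.6 CPM in the 2597 cells with at least 3 cycle UMIs. Cd200r4 had 31.4 and 32.0 CPM there, Cd200r3 50.2 and 36.3 CPM, Lilr4b 35.1 and 18.5 CPM and Lilrb4a 10.0 and 6.10 CPM. Of the 78 cells, 56 were in the lowest Prss34 bin. In that bin Cd200r1 had 19.5 CPM without and 16.4 CPM with at least 3 cycle UMIs, with intervals that overlap. Cd200r4 had 21.3 and 3.65 CPM there, Cd200r3 28.3 and 7.04 CPM, Lilr4b 24.8 and 13.6 CPM and Lilrb4a 10.6 and 2.35 CPM. Within the lowest Prss34 bin of the cKIT- library, however, Lilr4b had 983 CPM without and 1054 CPM with at least 3 cycle UMIs. Mki67, a marker of dividing cells, was low in both, with 7.83 and 9.23 CPM from 2 and 13 UMIs. At 4 to 6% Prss34, cKIT- cells with 1 or 2 cycle UMIs had 330 CPM of Lilr4b and those with at least 3 had 197 CPM. Prss34 itself had 20025 CPM in the cKIT- cells without and 49337 CPM in those with at least 3 cycle UMIs. In the cKIT+ cells it had 7508 and 19993.5 CPM. Both orders thus moved together in either library, and their separate parts were not tested.

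The other cell types of the sorts held some members and lacked others. The 109 macrophage-like cells of the cKIT+ library had 76.3 CPM of Cd200r1 (54.8 to 104), 39.1 CPM of Lilr4b and 42.8 CPM of Lilrb4a, but 0 UMIs of Cd200r3 and of Cd200r4, which allows up to 5.59 CPM. Cd200r1 there was 132% of the level in cKIT+ basophil-like cells, and Lilrb4a 646%, while Mcpt8, a measure of basophil RNA in these cells, was 8.46%. Macrophage-like cells thus had Cd200r1 without detectable Cd200r3 or Cd200r4. The interval for Cd200r3 as a share of Cd200r3 and Cd200r1 UMIs was 0% to 8.60% in them, against 39.0% (37.5% to 40.4%) in cKIT+ and 69.1% (68.3% to 70.0%) in cKIT- basophil-like cells.

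Neutrophil-like cells of the cKIT+ library had 26.9 CPM of Lilr4b (22.9 to 31.5) and 12.6 CPM of Lilrb4a (9.85 to 15.9), which was 132% and 190% of the basophil-like level in that library. Their Cd200r3 and Cd200r4 levels were 10.9% and 8.86% of it, next to 11.5% for Mcpt8 and 11.4% for Prss34, while Cd200r1 was at 24.2%. In the cKIT- library the 64 neutrophil-like cells had 120 CPM of Lilr4b (86.3 to 163), 31.6% of the basophil-like level. In these cells Cd200r3 was at 13.9% and Cd200r4 at 18.2%, above Mcpt8 at 7.37% and Prss34 at 6.84%, from 17 and 12 UMIs of the receptor genes. Monocyte-like cells had 12.0 CPM of Lilr4b and 20.6 CPM of Lilrb4a in the cKIT+ and 64.0 and 37.4 CPM in the cKIT- library. In granulocyte/monocyte progenitor-like cells no member was above 3.15 CPM, and in eosinophil-like cells none was above 8.08 CPM. Erythroid-like cells had 4 UMIs of Cd200r1 and 0 of the other members.

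The share of Lilr4b among the UMIs of Lilr4b and Lilrb4a was 75.5% (73.1% to 77.9%) in cKIT+ and 82.2% (81.5% to 83.0%) in cKIT- basophil-like cells, but 47.7% (32.5% to 63.3%) in macrophage-like and 36.8% (21.8% to 54.0%) in cKIT+ monocyte-like cells. It was 63.2% (46.0% to 78.2%) in cKIT- monocyte-like cells and 68.1% (61.6% to 74.2%) and 80.4% (66.9% to 90.2%) in cKIT+ and cKIT- neutrophil-like cells. Neutrophil-like and basophil-like cells thus overlap in their intervals within either library. Along Prss34 the share was between 81.2% and 84.3% in cKIT- basophil-like cells, although both genes differed by ratios of 5.58 and 6.94 in level. In cKIT+ basophil-like cells it was between 70.5% (65.6% to 75.1%) and 80.8% (75.4% to 85.4%). Reads of this pair are not fully separable. In 3 of 4 coding Lilrb4a transcripts, each 56-base window of the last 500 bases also occurs in transcripts of Gm49339, an annotated gene that spans both loci, and 41.8% also occur in a Lilr4b transcript. The longer Lilr4b transcript shares 0% of such windows with any other gene, as do all transcripts of Cd200r1, Cd200r3 and Cd200r4. Gm49339 itself had 5 UMIs in the cKIT- and 0 in the cKIT+ library. How the authors' counting treated reads of overlapping genes is not given in the sources used here, so the Lilrb4a level is uncertain.

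**Figure D4:**
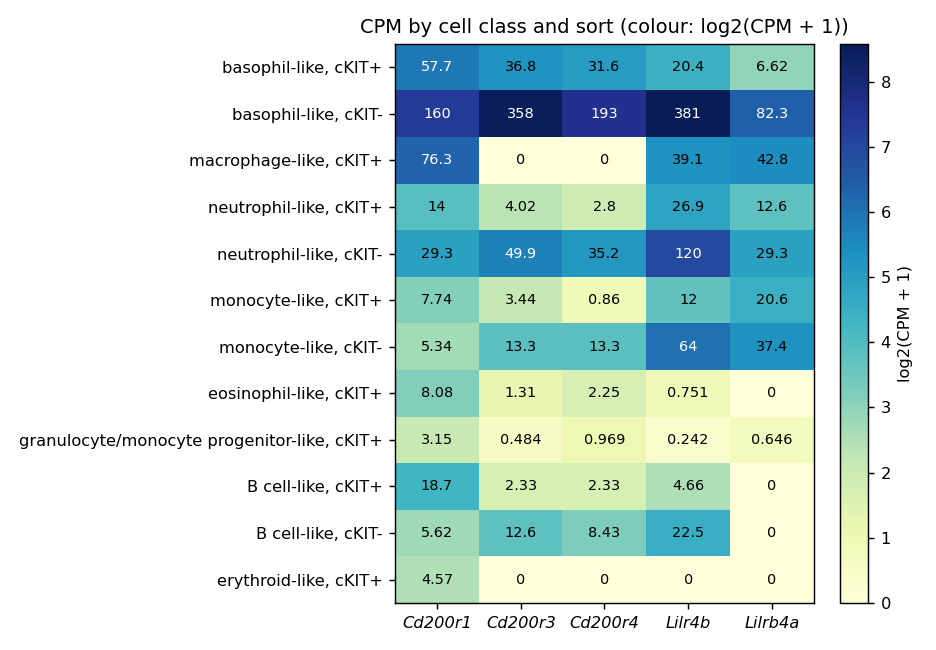
Level of the 5 genes in CPM in each cell class and library with at least 20 cells, with the colour on a log2(CPM + 1) scale. Basophil-like cKIT- cells are highest for all 5 genes, macrophage-like cells have Cd200r1 (76.3 CPM), Lilr4b (39.1 CPM) and Lilrb4a (42.8 CPM) without Cd200r3 or Cd200r4, and neutrophil-like cells have Lilr4b and Lilrb4a.

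The patterns were compared over 29 pools of at least 20 cells, each of 1 class or basophil-like cluster in 1 library, among 6059 genes. These correlations of log2(CPM + 1) are a description, since pools share libraries and depth. The gene most like Cd200r3 was Cd200r4 (r = 0.98), and the same holds the other way. Alox15, a lipoxygenase gene, was among the 5 genes most like Cd200r4 (0.94), and Cyp4f18, a cytochrome P450 gene, was among those most like Cd200r3 (0.96). Cd200r1 was less like its relatives (0.84 with Cd200r3 and 0.83 with Cd200r4) and most like Gpr34, a lysophosphatidylserine receptor gene (0.95), followed by Tulp3, Igfbp7, Csf2rb2 and Inpp4b, at 0.92 to 0.93.

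Lilr4b was most like Ccl6 (0.96), Hacd4 (0.96) and Ccl3 (0.94), of which Ccl6 and Ccl3 encode chemokines. In cKIT- basophil-like cells Ccl6 also ran against Prss34, with 6433 CPM in the lowest and 786 CPM in the highest bin. Lilrb4a was most like Tyrobp, the DAP12 gene (0.94), and Hacd4 (0.93), and its correlation with Lilr4b was 0.92. The correlations between the LILR pair and the CD200 receptor genes were lower, from 0.66 for Lilrb4a with Cd200r4 to 0.87 for Lilr4b with Cd200r3.

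Of the neighbouring genes on chromosome 16 within 200 kb, Cd200r2 had 118 UMIs or 5.16 CPM in the cKIT- and 47 UMIs or 0.516 CPM in the cKIT+ library, giving a ratio of 10.0 (7.08 to 14.3). Outside the family the ratio was 1.06 (0.880 to 1.28) for Nepro, 0.648 (0.565 to 0.739) for Gtpbp8 and 2.24 (1.90 to 2.64) for Slc35a5, and Atg3 had 109 and 72.8 CPM. Ccdc80, also outside the family, had a ratio of 6.54 (4.40 to 9.85) from 69 and 42 UMIs, above that of Cd200r1. On chromosome 10 the other coding genes in this distance besides Gm49339, Fam162b, Gprc6a and Rfx6, had between 0 and 2 UMIs per library.

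A list of 52 genes of the CD200 and LILR pathways, chosen with earlier results known, was read for comparison, of which 47 were found and 21 had at least 50 CPM in 1 library. Besides the 4 members, 1 of the 16 other genes was at least 4-fold higher in the cKIT- library, where 2.26% of all genes were. At least 4-fold higher in the cKIT+ library was 1 of them, where 1.15% of all genes were. The median log2 ratio of these 16 genes was 0.50, against 0.06 for all 3224 genes. Some of the 16, such as Dok2 and Pirb, reached 50 CPM in the cKIT- library only. The list was also chosen with earlier results known, so nothing is read from these counts or this median. Cd200, the ligand, had 1.97 CPM in cKIT- and 0.209 CPM in cKIT+ cells, and in basophil-like cells 0.0480 and 0.128 CPM, so the ligand was barely found in the sorts.

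Among signalling partners, Tyrobp, the adaptor of CD200R3 and CD200R4, had 968 CPM in the cKIT+ and 3716 CPM in the cKIT- library, giving a ratio of 3.84 (3.80 to 3.87). The related adaptors Hcst (2.99) and Fcer1g, the signalling chain of the IgE receptor (2.40), were also higher in cKIT- cells. Within basophil-like cells the ratios were 3.27 for Tyrobp, 2.42 for Hcst and 2.00 for Fcer1g. Dok2, which carries the CD200R1 signal, had 20.8 and 50.1 CPM, a ratio of 2.41 (2.24 to 2.59), whereas Dok1 and Rasa1 stayed under 50 CPM with ratios of 1.13 and 0.939. Inpp5d, a lipid phosphatase, had a ratio of 1.42, and the kinases Syk, Btk and Lyn had ratios of 1.34, 1.40 and 1.94. Ptpn6, the SHP-1 phosphatase bound by inhibitory receptors, had 1.31. Within basophil-like cells the ratio was 2.56 for Dok2, 1.47 for Inpp5d, 1.23 for Syk, 1.33 for Btk, 1.78 for Lyn and 1.25 for Ptpn6.

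In the LILR family, Pirb, an inhibitory receptor of myeloid cells, had 17.3 CPM in the cKIT+ and 77.3 CPM in the cKIT- library, giving a ratio of 4.46 (4.17 to 4.78). Pira2, Lilra5 and Lilra6 stayed under 50 CPM in both. Of genes named as LILRB4 ligands, Apoe was lower in the cKIT- library, with 380 against 930 CPM, a ratio of 0.408 (0.399 to 0.417). Itgb3, an integrin chain, was low in both, with 26.1 and 2.48 CPM, a ratio of 10.5 (9.03 to 12.3). Fn1 and Itgav also stayed under 50 CPM, with ratios of 5.19 and 1.27. Among other paired and inhibitory receptors with at least 50 CPM in 1 library, Cd300a had a ratio of 1.94, Lair1 of 1.34, Fcgr2b of 1.21 and Clec12a of 1.08. Those under 50 CPM had ratios from 0.361 for Siglece to 9.20 for Cd22. Cd300lb was one of them, with 43.6 CPM in the cKIT- and 5.98 CPM in the cKIT+ library, a ratio of 7.29. In basophil-like cells Cd300lb had a ratio of 6.97. Cd22 had only 0.0961 CPM in the cKIT- and 0.0852 CPM in the cKIT+ basophil-like cells, a ratio of 1.13 (0.102 to 7.87). Clec4a2, a lectin receptor, was lower in cKIT- cells, with 11.1 against 64.0 CPM (0.173), but in basophil-like cells it had 0.673 and 0.831 CPM, a ratio of 0.810. The 4 members with ratios from 9.72 to 25.6 lay above all other genes of the list that had at least 50 CPM. They reached 50 CPM in the cKIT- library only and were chosen with these differences known, so nothing is read from this order. Under 50 CPM, Itgb3 and Cd200r2 (10.0) had ratios above the 9.72 of Cd200r4.

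**Figure D5:**
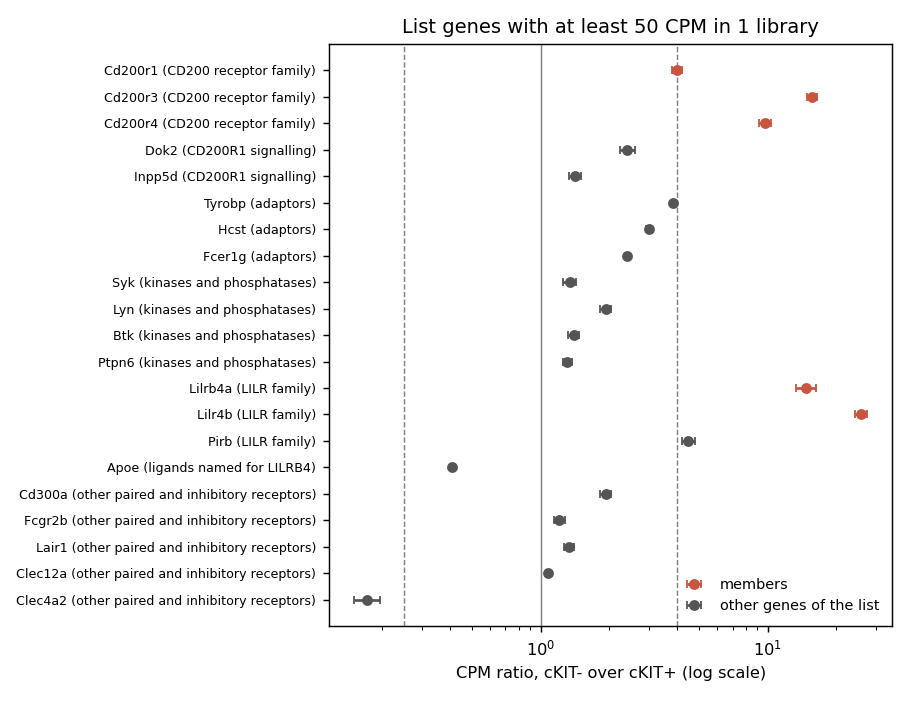
Ratio of the level in the cKIT- over that in the cKIT+ library for the 21 genes of the list with at least 50 CPM in 1 library, ordered by role, on a log axis, with exact binomial intervals, a line at equal levels and dashed lines at 4-fold. Lilr4b (25.6), Cd200r3 (15.6), Lilrb4a (14.7) and Cd200r4 (9.72) lie farthest to the right, followed by Pirb (4.46), Cd200r1 (3.97) and Tyrobp (3.84).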

How the data were processed

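Both sorts of mouse bone marrow were measured as 1 single-cell library each. The authors ran Cell Ranger 3.0.2 with mm10, and the deposited values are unnormalised UMI counts. The labels and the study differ on the version of the 10x kit and on the mice, and the gene annotation used is not given in the sources used here. Following the study, the 1% of cells at either end by genes and the top 1% by UMIs were dropped, counted over genes found in 40 or more cells, which kept 6479 of 6632 and 3662 of 3745 cells. Levels were summed over all genes. Positions are from GENCODE M21, which holds 30934 of the 31053 identifiers.

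Cells were clustered in Seurat 5.3.0 under R 4.3.3 (2000 variable genes without the members, 15 principal components, resolution 1). Class names went by which markers stood among the 10 leading genes of a cluster, given 3 or more markers on (20 CPM and 10% of the highest cluster). Basophil-like also covered clusters with 7 or more of the 10 basophil markers on, unless another class led. This rule was set after the clusters were seen, and 5 of 26 clusters stayed unnamed. Cluster 0 just met the rule, with 7 basophil markers on and none among its leading genes. It held 38.8% of the cKIT- basophil-like cells and 97.4% of those in the lowest Prss34 bin. Cluster 5, with 524 cKIT+ and 28 cKIT- cells, had 8 basophil markers on. It stayed unnamed because Trbc2, a marker of the T or NK cell class, was among its leading genes. Counting it as basophil-like kept 15 of 15 levels along Prss34 within 1.5 times of the main value. Doublets were kept as in the study; Scrublet in Scanpy 1.11.5 marked 267 cKIT+ and 7 cKIT- cells, too few in the second library to have worked. Thinning to 2000 UMIs left out 345 and 176 cells.

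The members and lists were chosen with earlier results of these data known. Genes named are the members, the pathway list, the 5 genes most like each member, coding genes within 200 kb, and genes of the sort and the classes; Mki67 and Gm49339 were named after their values were seen. One gene among those most alike is not reported here. Sums carry exact Poisson, shares and ratios exact binomial intervals at 95%. A count of 0 allows 3 counts. edgeR 4.0.16 gave TMM factors alone. On simulated counts for 2706 genes the comparison found each of 200 genes given an 8-fold change and made 0 false calls. The simulation held counting error only and changed genes with at least 50 CPM in the cKIT+ library, where all 5 members had less. It thus checks the calculation alone and cannot speak to variation between libraries or cells. Alternatives covered the cell filter, scaling, doublets, depth, bins and clustering.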

Additional observations from a re-analysis of the deposited data

How the results depend on the processing

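With 1 library per sort no difference was tested, and depth limits the cKIT- cells most. No paired analysis was possible because neither sort has another library to pair. Each alternative to the ratio between the sorts kept all 5 members higher in the cKIT- library. Values below are ratios of cKIT- over cKIT+ in the order Cd200r1, Cd200r3, Cd200r4, Lilr4b and Lilrb4a. From UMIs per cell they were 1.76, 6.93, 4.32, 11.4 and 6.53, and over basophil-like cells 2.77, 9.73, 6.11, 18.6 and 12.4. With the 10 most abundant genes of each library left out of the total they were 4.27, 16.8, 10.4, 27.6 and 15.8, so that Cd200r1 passed 4-fold, as it did with all cells as deposited (4.01). With every cell given the same weight the values that moved were 14.1, 8.83, 17.9 and 10.97 for the last 4 genes, and over cells with at least 3 Mcpt8 UMIs 3.43, 12.8 and 8.14 for the first 3.

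The count of all genes past 4-fold depended on the minimum level. With at least 10 UMIs in all, 465 genes were higher in the cKIT- and 1038 in the cKIT+ library, against 73 and 37, so the balance turned, for a cause that was not tested, and with at least 200 CPM the counts were 20 and 10. For the pathway list, 11 genes were higher in the cKIT- library with at least 10 UMIs in all, against 5 of the 21 with at least 50 CPM. The share of all genes past 4-fold at the lower minimum is not given here, so nothing is read from the 11. TMM factors gave 68 and 40. Of 170 other values, 140 stayed within 1.5 times of the main value, and the other 30 came from thinning, the UMI minimum or the use of all kept cells. Leaving out 64 cells of cluster 0 lowered the cKIT+ level of Lilr4b in the lowest Prss34 bin from 21.4 to 3.95 CPM, and the ratio went from 50.3 to 273, or to 154 with cluster 0 left out of both libraries, an alternative added after seeing the data, as were those without shared barcodes and with cluster 5 counted as basophil-like.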
